A study of Mus musculus with 8 samples.

Results

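The Fc gamma receptors, which bind the constant part of IgG antibodies, and the gamma chain through which most of them signal were described in cultured mouse macrophages with and without loading by acetylated low-density lipoprotein (acLDL). The family comprised 5 genes, Fcgr1, Fcgr2b, Fcgr3, Fcgr4 and Fcer1g, taken by gene symbol. Each had 1 probe set of its own, shared with no other gene in the annotation, so that 5 of the 19938 genes tested were members. Both groups were macrophages from the peritoneum of C57BL/6J mice, drawn there by thioglycollate injected 5 days before harvest and cultured in DMEM with fetal bovine serum. The 4 unloaded arrays came from cells given no lipoprotein, and the 4 acLDL arrays from cells given acLDL, which macrophages take up through scavenger receptors. The labels leave the exposure unsettled: one field has 20 µg/mL for 3 days, the design text of the series 50 µg/mL for 2 days. The series description calls the 4 replicates of a condition independent, without saying whether mice were pooled or shared between cultures, and the age and sex of the mice are not stated in the labels used here.

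Fc gamma receptors let macrophages recognise antibody-coated particles and immune complexes. Fcgr1 encodes the high-affinity receptor for IgG, and Fcgr3 and Fcgr4 encode activating receptors of lower affinity. In the mouse these 3 receptors depend on the product of Fcer1g, a small transmembrane chain with an immunoreceptor tyrosine-based activation motif (ITAM), which Src-family kinases phosphorylate and the kinase Syk then binds. Fcgr2b encodes the inhibitory receptor, whose own inhibitory motif recruits the lipid phosphatase encoded by Inpp5d. Engagement leads to phagocytosis, an oxidative burst and cytokine release, and the balance of activating and inhibitory receptors sets the threshold for these responses.

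The sequences before the start sites of 4 members are shown because the receptor genes went in opposite directions with acLDL although all are known to be expressed in macrophages. They are the 250 bases before the start of each gene in RefSeq (GRCm38.p6), which held windows for 5 of 5 members (for Fcgr3, the first of its listed start sites). Capitals mark matches, on either strand, to GAGGAA, which the macrophage factor encoded by Spi1, an Ets factor, can bind. They also mark TTCNNNGAA, the core of the gamma-activated site bound by STAT factors. The interferon regulatory factor core of GAAA repeated with 2 bases between is marked as well.
Fcgr1, chr3:96293970-96294219, minus strand: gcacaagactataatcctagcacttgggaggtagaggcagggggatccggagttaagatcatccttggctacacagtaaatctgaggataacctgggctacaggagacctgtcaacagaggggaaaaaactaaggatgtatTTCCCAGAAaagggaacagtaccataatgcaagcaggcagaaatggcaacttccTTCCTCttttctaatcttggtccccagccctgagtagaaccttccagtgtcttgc
Fcgr3, chr1:171059404-171059653, minus strand: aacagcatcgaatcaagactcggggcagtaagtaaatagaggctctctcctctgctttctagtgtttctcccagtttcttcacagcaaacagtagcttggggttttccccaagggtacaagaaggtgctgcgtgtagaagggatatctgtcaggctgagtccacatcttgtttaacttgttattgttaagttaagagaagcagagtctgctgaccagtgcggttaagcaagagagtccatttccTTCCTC
Fcgr4, chr1:171018676-171018925, plus strand: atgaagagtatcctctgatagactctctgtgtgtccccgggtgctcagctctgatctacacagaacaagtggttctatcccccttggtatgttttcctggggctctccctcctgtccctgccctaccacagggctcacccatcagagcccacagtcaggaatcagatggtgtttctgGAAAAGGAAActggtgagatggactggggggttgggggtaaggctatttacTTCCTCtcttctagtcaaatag
Fcgr2b, chr1:170976072-170976321, minus strand: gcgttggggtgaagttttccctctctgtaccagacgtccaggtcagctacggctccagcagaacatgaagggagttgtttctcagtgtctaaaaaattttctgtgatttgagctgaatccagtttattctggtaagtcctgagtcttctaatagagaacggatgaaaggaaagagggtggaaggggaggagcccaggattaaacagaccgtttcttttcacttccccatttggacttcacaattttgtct

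GAGGAA was present, as its reverse complement TTCCTC, in the windows of Fcgr1, Fcgr3 and Fcgr4, and these letters were not in the windows of Fcgr2b and Fcer1g. They occurred in 23.2% of the 32851 promoter windows of this length in the table. Shorter and other forms of Ets sites were not searched for. The shorter GGAA within GAGGAA does stand, unmarked, in the windows of Fcgr2b and Fcer1g. The capitals therefore do not tell windows with Ets letters from windows without them. The TTCNNNGAA match of Fcgr1, TTCCCAGAA, lay 109 to 101 bases before the start, and 7.02% of all windows held such a match. Fcgr4 alone of the 5 windows held the repeated GAAA, as GAAAAGGAAA, which 2.98% of all windows held. The spaced repeat of the liver X receptors (the perfect form, AGGTCA repeated after 4 bases) was in none of the 5 windows and in 0.0152% of all windows. No marked matches overlapped each other. These matches describe letters in a window and are not evidence of binding.

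The genes of the activating receptors and of the gamma chain were higher in loaded cells, and the gene of the inhibitory receptor was lower. Fcgr1 was 1.63-fold, Fcer1g 1.53-fold, Fcgr3 1.51-fold and Fcgr4 1.31-fold higher with acLDL, while Fcgr2b was 1.31-fold lower. All 5 members passed a limma adjusted p under 0.05, 4 higher and 1 lower, where 23.3% of all genes tested passed, 12.9% higher and 10.5% lower. The groups did not overlap in 5 of 5 members, and in 25.6% of all genes. Changes of at least 1.5-fold, found in 2.03% of all genes, 1.33% higher and 0.697% lower, were seen in Fcgr1, Fcer1g and Fcgr3. RNA was taken from whole cultures, so that fewer cells of a kind and less RNA per cell cannot be told apart.

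Fcgr1, which encodes the high-affinity receptor CD64, had log2 values of 7.17, 7.15, 7.01 and 7.22 in unloaded arrays 1 to 4 and of 7.75, 7.93, 7.82 and 7.89 in acLDL arrays 1 to 4. Every acLDL array stood above every unloaded array, and the gap between the groups was wider than the spread within either. The mean went from 7.14 ± 0.09 to 7.85 ± 0.08 (log2, SD, n = 4), a log2 difference of 0.71 ± 0.07 (SE; limma adjusted p = 9.57e-06). It was the largest change of the family and the 141st highest difference of the 19938 genes.

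Fcgr3, which encodes a low-affinity activating receptor of macrophages, neutrophils and natural killer cells, had log2 values of 9.88, 9.58, 9.57 and 9.61 without loading and of 10.32, 10.32, 10.20 and 10.16 with acLDL. Unloaded array 1 stood above the other unloaded arrays but below every acLDL array. The log2 difference was 0.59 ± 0.08 (SE; limma adjusted p = 0.000117), from 9.66 ± 0.15 to 10.25 ± 0.08 (SD, n = 4). Fcgr4, whose receptor binds IgG2a and IgG2b in the mouse, had log2 values of 9.17, 9.0, 8.98 and 9.23 in unloaded arrays and of 9.46, 9.58, 9.41 and 9.48 in acLDL arrays. Its groups were separate but closer than those of Fcgr1 and Fcgr3. The log2 difference of Fcgr4 was 0.39 ± 0.07 (SE; limma adjusted p = 0.00158), from 9.09 ± 0.13 to 9.48 ± 0.07 (SD, n = 4).

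Fcer1g, the gene of the shared gamma chain, had log2 values of 12.02, 11.72, 11.69 and 11.85 in unloaded arrays and of 12.43, 12.43, 12.44 and 12.41 in acLDL arrays. The loaded arrays lay within a narrow band above all unloaded arrays, of which array 1 was again the highest. The log2 difference was 0.61 ± 0.07 (SE; limma adjusted p = 6.16e-05), from 11.82 ± 0.15 to 12.43 ± 0.01 (SD, n = 4).

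Fcgr2b, the gene of the inhibitory receptor, had log2 values of 9.13, 8.85, 8.77 and 8.98 in unloaded arrays and of 8.58, 8.57, 8.47 and 8.53 in acLDL arrays. Here every acLDL array stood below every unloaded array. The log2 difference was -0.39 ± 0.08 (SE; limma adjusted p = 0.00225), from 8.93 ± 0.16 to 8.54 ± 0.05 (SD, n = 4). It was the 559th lowest difference of the 19938 genes. Fcgr2b and Fcgr3 code for closely similar extracellular parts, and how far their probes tell the transcripts apart was not tested.

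**Figure D1:**
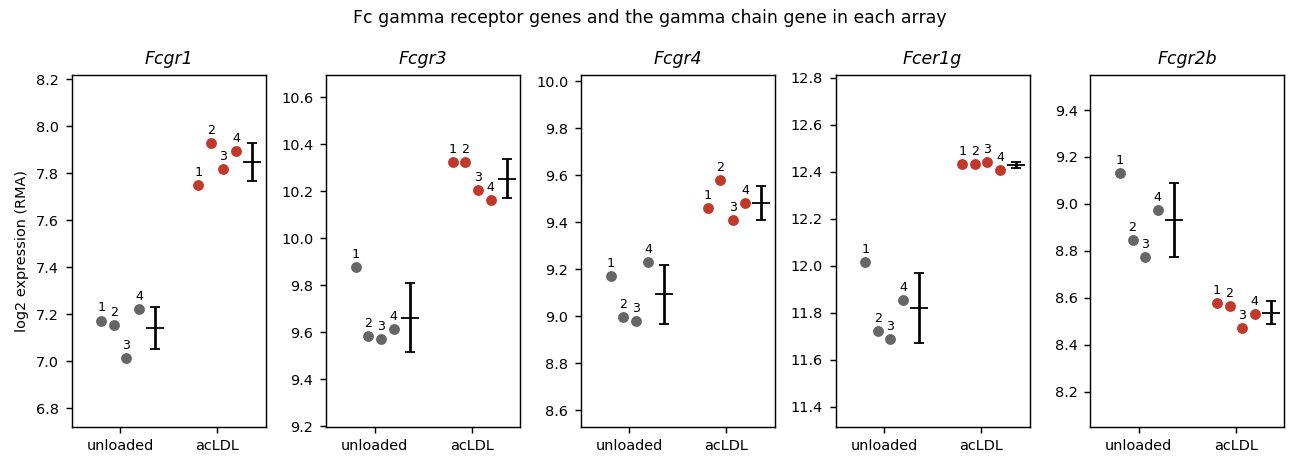
Log2 expression (RMA) of the 5 genes in each array, with the replicate number above each point and the mean ± SD (n = 4) as a bar beside each group; every panel spans the same log2 range, and levels are not comparable between panels. The acLDL arrays lie above all unloaded arrays for Fcgr1, Fcgr3, Fcgr4 and Fcer1g and below all of them for Fcgr2b.

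Among the members that rose, the intervals of Fcgr1 and Fcgr4 did not overlap, and those of all other pairs did. The 95% confidence intervals of the log2 differences were 0.56 to 0.85 for Fcgr1, 0.42 to 0.76 for Fcgr3, 0.23 to 0.55 for Fcgr4 and 0.45 to 0.77 for Fcer1g. The interval of Fcgr2b was -0.56 to -0.23. Leaving out each of the 8 arrays in turn gave 0.67 to 0.74 for Fcgr1 and -0.45 to -0.33 for Fcgr2b, and the calls of all 5 genes held in each case. Fcgr3 and Fcer1g sat so near 1.5-fold that some of these settings placed them below it.

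**Figure D2:**
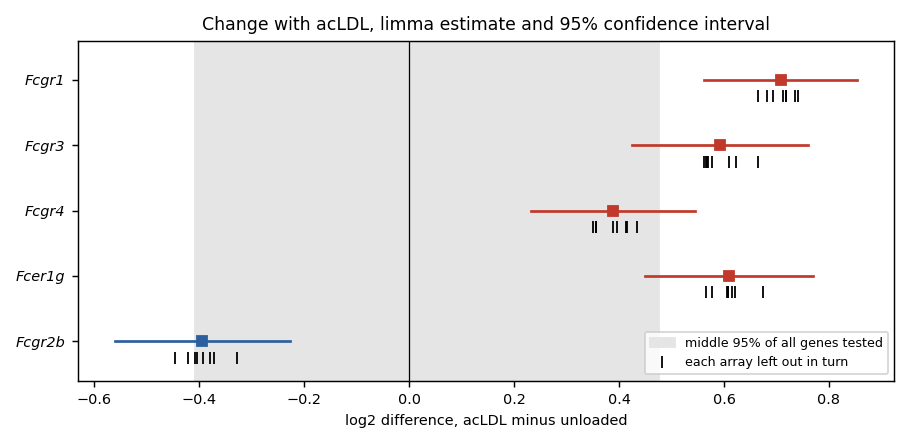
Log2 difference (acLDL minus unloaded) of each gene as a square with its 95% confidence interval from limma; ticks below each square give the value with each array left out in turn, and the grey band covers the middle 95% of all genes tested, -0.41 to 0.48. The squares of Fcgr1, Fcgr3 and Fcer1g lie to the right of the band, and those of Fcgr4 and Fcgr2b lie inside it, near its edges.

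The log2 ratio of each other member to Fcgr2b within an array sums 2 changes already given, and is shown for its level in each array. Set to 0 at the unloaded mean, the log2 ratio of Fcgr1 to Fcgr2b was -0.17, 0.10, 0.03 and 0.04 in unloaded arrays and 0.96, 1.15, 1.14 and 1.15 in acLDL arrays. For Fcer1g it stayed between -0.01 and 0.03 in unloaded arrays and between 0.97 and 1.08 in acLDL arrays, an increase of 2.00-fold. The ratios of Fcgr1, Fcgr3 and Fcgr4 to Fcgr2b were 2.15-fold, 1.98-fold and 1.72-fold higher with acLDL. The ratios share Fcgr2b, whose groups lay apart in the other direction, so that their separation is fixed by the values of the single genes and is given with no test.

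**Figure D3:**
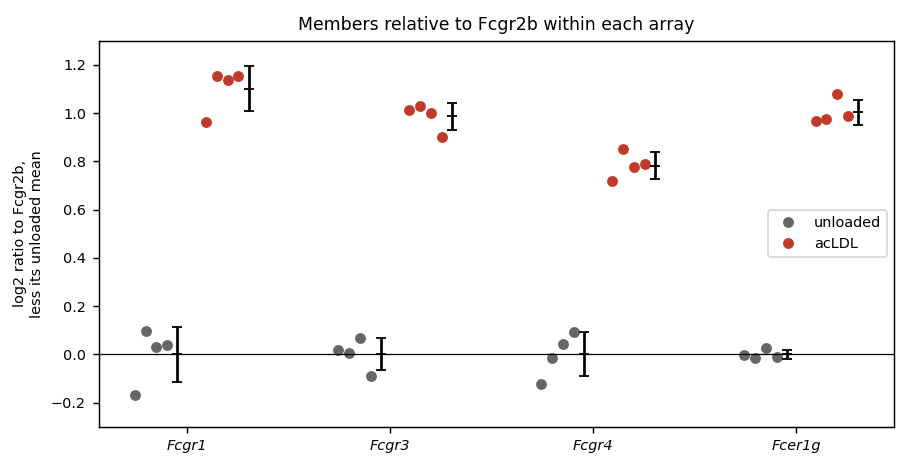
Log2 ratio of each gene to Fcgr2b within an array, less its mean over the 4 unloaded arrays, with points for arrays and bars for mean ± SD (n = 4). Unloaded arrays (grey) scatter around 0, and acLDL arrays (red) lie between 0.72 and 1.15.

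Within the unloaded group the 5 genes shared a split of the arrays, though by little in Fcgr1, with array 1 at 7.17 and array 2 at 7.15 (log2). Unloaded arrays 1 and 4 stood above unloaded arrays 2 and 3 in 5 of 5 members, Fcgr2b included, as in 28.9% of all genes and 43.2% of genes above a background gauge, the 95th percentile of olfactory receptor genes. The reverse order held in 27.3% of all genes. The same pairs lay apart on the second principal component of all genes, which held 18.0% of the variance. They also differed in how signal varied with genomic span, with Spearman correlations across genes of 0.23 and 0.21 in arrays 1 and 4 and of -0.02 and -0.05 in arrays 2 and 3. With the genomic span trend taken out, the log2 differences were 0.69 for Fcgr1, 0.58 for Fcgr3 and 0.37 for Fcgr4. They were 0.57 for Fcer1g and -0.40 for Fcgr2b, and all 5 calls held. The part of the span trend in the order of the unloaded arrays was not tested. Without unloaded arrays 1 and 4 the log2 differences were 0.77 for Fcgr1, 0.68 for Fcgr3, 0.49 for Fcgr4, 0.72 for Fcer1g and -0.27 for Fcgr2b. Without arrays 2 and 3 they were 0.65, 0.51, 0.28, 0.49 and -0.52 in the same order. The largest limma adjusted p in these fits was 0.0163, for Fcgr4, so that the calls of all 5 held.

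Receptor genes that lie side by side went opposite ways. In the RefSeq order of chromosome 1, Fcgr2b, Fcgr4 and Fcgr3 follow each other with no other protein-coding gene between them, and 7 protein-coding genes lie between Fcgr3 and Fcer1g. Of the 6 measured genes between Fcgr3 and Fcer1g, Tomm40l and Pcp4l1 rose, by 0.34 and 0.32 on the log2 scale. Sdhc, which encodes a subunit of succinate dehydrogenase, differed by 0.12 ± 0.06 (log2, SE) and did not pass. On the other side of Fcgr2b, the Fc receptor-like genes Fcrla and Fcrlb differed by -0.16 ± 0.08 and 0.16 ± 0.10 (log2, SE) and did not pass. Fcgr1 lies on chromosome 3 between H2bc18, a histone gene called higher but not above the background gauge by its mean (5.70 and 6.14, log2), and BC107364, which differed by 0.07 ± 0.07 (log2, SE) and did not pass. In all, 3 of 15 measured neighbours rose and 1 fell, near the share over all genes, and the neighbours are mentioned with their values already known.

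Other Fc receptor genes mostly did not pass, and most were near background. Of 12 measured members of the list of other Fc receptors 0 rose, 1 fell and 11 did not pass, where 23.3% of all genes passed. The median log2 difference was -0.07 against 0.00 over all genes. At an unadjusted p under 0.05 in limma, 1 was higher (Fcrl1) and 1 lower (Trim21). By their mean, 2 of the 12 lay above 6.12, the 95th percentile of 1027 olfactory receptor genes, taken as a gauge of background because odorant receptors belong to the nose. The member that fell was Trim21, the cytosolic antibody receptor, by 0.25 (log2; limma adjusted p = 0.0499), and its groups overlapped. Its call was lost when any of unloaded arrays 1, 2 and 4 or acLDL arrays 1, 2 and 3 was left out, with adjusted p up to 0.146, and without unloaded arrays 1 and 4 it differed by -0.15 (0.290). Fcer1a and Ms4a2, the chains that join Fcer1g in the mast cell receptor for IgE, stood at 3.82 and 4.26 in unloaded and at 3.73 and 4.12 in acLDL cells (log2), below the background gauge.

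Adaptors of the ITAM kind and receptors that signal through them or beside them went both ways. Of 14 measured genes 4 rose, 3 fell and 7 did not pass (50.0% passed), with a median of -0.10. By their mean, 9 of the 14 lay above the background gauge, where 33.5% of all genes passed. Tyrobp, which encodes the other main ITAM adaptor of macrophages, rose by 0.25 ± 0.06 (log2, SE; limma adjusted p = 0.00861), a call chosen for mention after its value was seen. The lectin receptor genes Clec4d and Clec4e, whose products pair with the gamma chain, rose by 0.43 and 0.37 on the log2 scale. Clec7a, the beta-glucan receptor gene, which carries a motif of its own, fell by 0.66, and Cd300lf, a mostly inhibitory receptor gene, fell by 0.55.

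Activating kinases and adaptors, which act just below the receptors, passed at about the share of all genes above the background gauge. Of 30 measured genes 8 rose, 2 fell and 20 did not pass (33.3% passed), with a median of 0.14. All 30 lay above the gauge by their mean, and 33.5% of all genes above it passed. Pik3cd, the leukocyte catalytic subunit of phosphoinositide 3-kinase, was 1.97-fold higher, from 8.37 ± 0.03 to 9.35 ± 0.08 (log2, SD, n = 4). The Src-family kinase genes Fgr and Src rose by 0.65 and 0.42 on the log2 scale. Without unloaded arrays 1 and 4 the difference of Fgr was 0.88, and without arrays 2 and 3 it was 0.41. Syk, the kinase that binds the phosphorylated ITAM, differed by 0.04 ± 0.06 (log2, SE) and did not pass, a gene chosen for mention after its value was seen. Tec, a kinase gene of the Btk family, fell by 0.43.

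Genes of inhibitory enzymes and adaptors rose in part, unlike the inhibitory receptor itself. Of 15 measured genes 8 rose, 1 fell and 6 did not pass (60.0% passed), with a median of 0.18. By their mean, 14 of the 15 lay above the background gauge, where 33.5% of all genes passed. Dok2, an adaptor that restrains Ras signalling, was 1.70-fold higher and Ptprj, a receptor tyrosine phosphatase gene, 1.60-fold. Ptpn22 and Ptpn6, both of which encode phosphatases that dampen immunoreceptor signals, rose by 0.50 and 0.38 on the log2 scale. Inpp5d, whose product binds the inhibitory motif of the Fcgr2b receptor, differed by 0.06 ± 0.07 (log2, SE) and did not pass, a gene chosen for mention after its value was seen.

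Downstream, the actin machinery that drives the phagocytic cup rose in part, and the oxidase went both ways. Of 33 measured actin genes 13 rose, 2 fell and 18 did not pass (45.5% passed), with a median of 0.09. By their mean, 32 of the 33 lay above the background gauge, where 33.5% of all genes passed. Marcksl1 was 2.00-fold higher, Gsn, which encodes the actin-severing protein gelsolin, 1.61-fold, and Pla2g4a, the cytosolic phospholipase A2 gene, 1.46-fold. Without unloaded arrays 2 and 3 the log2 difference of Pla2g4a was 0.36, against 0.55 with all arrays. Rac2, a GTPase gene used by both the actin machinery and the oxidase, was 1.47-fold higher. Of 6 measured oxidase genes Rac2 rose, Cybb fell by 0.30 and Ncf1 by 0.27 (log2), and 3 did not pass (50% passed). All 6 lay above the gauge by their mean. The call of Ncf1 was lost without unloaded array 4 (adjusted p = 0.0551) and without acLDL array 2 (0.0583), and without unloaded arrays 1 and 4 the difference was -0.15 (0.138).

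Of 10 measured genes of transcription factors that act on Fc receptor genes, limma called 3 higher and 0 lower (30% passed), with a median of 0.08. At an unadjusted p under 0.05 in limma, 4 were higher and 1 lower. All 10 lay above the background gauge by their mean, so that the share passed was near the 33.5% of all genes above it. Cebpb rose by 0.51, Irf8 by 0.31 and Spi1 by 0.28 on the log2 scale. Without unloaded arrays 2 and 3 the adjusted p of Spi1 was 0.0587 and that of Irf8 0.0550. Over the 7 lists, which hold 119 different measured genes, 36 rose and 11 fell, so that 39.5% passed, against 23.3% of all genes. By their mean, 102 of the 119 lay above the background gauge, as did 11653 of all 19938 genes. Among genes above the gauge, 46.1% of the listed genes and 33.5% of all genes passed.

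**Figure D4:**
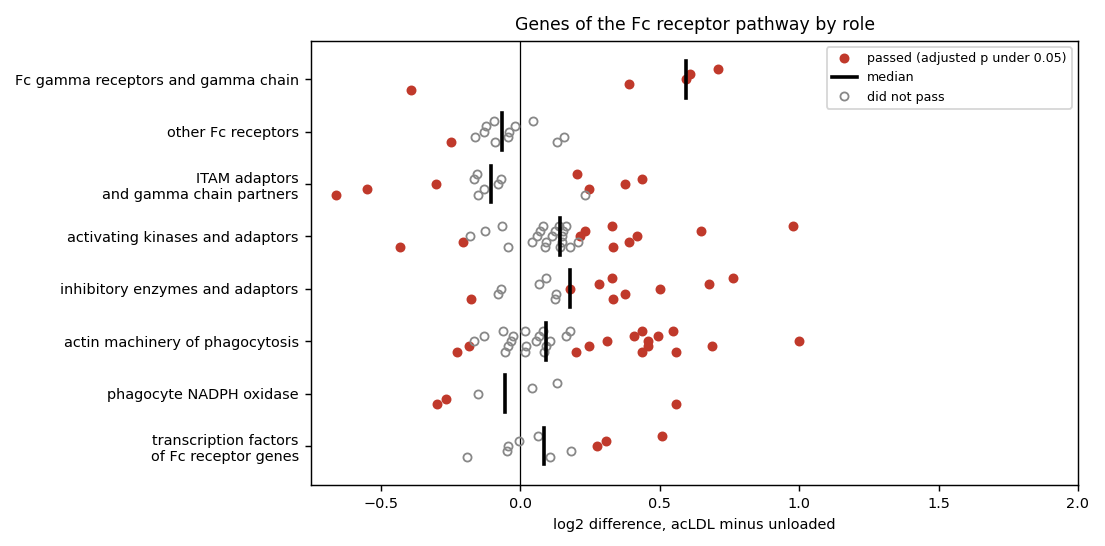
Log2 difference (acLDL minus unloaded) of each measured gene by role, with filled points for genes past the threshold, open points for the others and a bar at each list's median; points are spread vertically for legibility only. The 5 Fc gamma receptor and gamma chain genes are all filled, 4 to the right of 0 and 1 to the left, and the other lists hold open points on both sides of 0.

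No marker of other immune cells passed as higher with acLDL. The 7 lists covered B cells, natural killer cells, T cells, neutrophils, mast cells, eosinophils and dendritic cells. Of 47 measured markers only 8 lay above the background gauge by their mean, so that most were near background. In limma 0 of the 47 rose and 5 fell, where 12.9% of all genes rose and 10.5% fell. At an unadjusted p under 0.05, 1 was higher and 6 lower. The mean level of the B cell list was 5.84 to 5.95 in unloaded and 5.81 to 6.01 in acLDL arrays (log2), and its brightest member, Cd22, differed by 0.06 ± 0.06 (SE). Blk, the B cell marker with the smallest p, fell by 0.30, a call lost without unloaded array 3 or 4 or acLDL array 2 or 4 (adjusted p up to 0.0919) or without unloaded arrays 2 and 3 (0.111). Its mean lay below the gauge. The natural killer cell list ran from 4.61 to 4.68 and from 4.56 to 4.64, with Prf1 the brightest at 6.60 and 6.58, and Gzma, with the smallest p, differed by -0.12 ± 0.07 (SE) but passed without unloaded arrays 1 and 4 (-0.22, adjusted p = 0.0410). The neutrophil list ran from 5.10 to 5.19 and from 4.95 to 5.07. Its brightest member, S100a8, stood at 6.19 and 6.16, and Ly6g, with the smallest p, fell by 0.32 from 4.79, below the gauge. Without unloaded arrays 2 and 3 Ly6g differed by -0.20 (adjusted p = 0.118). The mast cell list ran from 5.05 to 5.14 and from 4.95 to 5.02. Its brightest member was Tpsb2, at 6.40 and 6.19, which did not pass with all arrays (adjusted p = 0.0605) but did without unloaded array 1 (0.0440) or 4 (0.0410) or both (0.0104). Cma1 fell by 0.27 from 5.78, below the gauge.

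The T cell list ran from 5.24 to 5.45 and from 5.26 to 5.38, with Cd3e both the brightest and the smallest in p, at 6.47 and 6.35. The dendritic cell list ran from 5.56 to 5.84 and from 5.63 to 5.71, with Zbtb46 the brightest, at 6.60 in both groups, and Clec9a, with the smallest p, differing by -0.11 ± 0.07 (log2, SE). In the eosinophil list, which ran from 5.60 to 5.73 and from 5.56 to 5.65, Siglecf fell by 0.60 from 7.97 and the other 5 members lay below the gauge. Of 7 fibroblast and mesothelial markers 6 lay above it, while the mesothelial marker Msln stood at 6.02 and 6.05. The mean of the list was 8.72 to 8.93 in unloaded and 8.62 to 8.73 in acLDL arrays, with 0 of 7 higher and 2 lower in limma (0 and 3 at an unadjusted p under 0.05). Col1a2 fell by 0.37 and Dcn, the brightest, by 0.26, a call lost without unloaded array 4 or acLDL array 3 or 4 (adjusted p up to 0.0738), and without unloaded arrays 1 and 4 the difference of Dcn was -0.16 (0.157). The part of these cells in the results was not tested. The macrophage label was borne by its own markers, of which 9 of 10 lay above the gauge, the exception being Cd163. Among the 10, Adgre1, Itgam, Msr1, Mertk and Mrc1 rose by 0.59, 0.63, 0.56, 0.33 and 0.25, and Cd14 fell by 0.33 (log2). The rises of Adgre1, Itgam and Msr1 were near those of Fcgr3 (0.59) and Fcer1g (0.61). Cd68, the brightest, differed by -0.09 ± 0.06 (log2, SE). In all, 6 of the 10 passed and 4 did not, where 33.5% of all genes above the gauge passed.

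Pearson's correlation over the 8 arrays takes in both the difference between the 2 groups and the spread within them. By it the genes most like each member were found among genes above the background gauge. For Fcgr1 they were Tlr1, Rbx1 and Gas7 (r = 0.998, 0.997 and 0.997), and Tlr1, a partner of the receptor for bacterial lipopeptides, was 1.89-fold higher. For Fcgr3 they were Brk1, a subunit of the WAVE complex that starts actin branching, Marchf8 and Cox4i1 (0.997, 0.995 and 0.995). For Fcgr4 they were Gys1, Gda and Tbc1d1 (0.992, 0.991 and 0.989). For Fcer1g they were the ribosomal RNA entry n-R5s136, Nme1 and Ndufb11 (0.997, 0.996 and 0.996). For Fcgr2b they were Trappc8, Rad9a and Anp32-ps (0.997, 0.994 and 0.992), which fell by 0.20, 0.21 and 0.47 on the log2 scale. No member was among the nearest 3 genes of another. With group means taken out, the r of these nearest genes ran from 0.93 (Rbx1 with Fcgr1) to 0.99 (Brk1 with Fcgr3). The likeness thus also follows the order of arrays within groups, which many genes shared.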

How the data were processed

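RNA of 8 cultures was run on Affymetrix arrays with a biotin label, per the labels' protocols. The authors deposited log2 values, which their processing notes credit to RMA (robust multi-array average), with no version named. RMA matches the distributions of arrays, which hides a change that all genes share, and it compresses differences of dim genes.

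The table held 35557 probe sets, of which 21789 had 1 gene symbol in the annotation. A gene with several was read from its brightest, which left 19938 genes. Differences are acLDL minus unloaded, fitted over all genes by lmFit and eBayes (limma 3.58.1, R 4.3.3, two-sided, no block) and adjusted by Benjamini-Hochberg, with a threshold of 0.05. Folds are 2 to the power of the difference. On simulated arrays this step found 90% of changes of 1.5-fold and 56% of changes of 1.3-fold, with 8 false calls. The simulation changed 200 of 19938 genes and drew noise independently for each gene and array. Its rates need not hold for these data, where more genes passed and arrays varied together. The number of arrays limits the precision.

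All members are named, with up to 4 genes with the largest called change per pathway list, the brightest marker and that with the smallest p per cell list, and the 3 genes most like each member. Other genes named, among them genome neighbours, Fcrl1, Fcer1a, Ms4a2, Msln and macrophage markers other than the brightest and that with the smallest p, were chosen after their values were seen. Of 132 pathway entries 120 and of 66 marker entries 64 had a single-symbol probe set. The others were not analysed here. The members and lists were chosen with earlier results of these data known. Replicate numbers were not used to pair the arrays in the main fit, since nothing in the labels ties them to a mouse or day. Correlations of deviations between same-numbered arrays were 0.11, -0.16, 0.30 and 0.14. These values do not settle whether equal numbers share a mouse or day. Alternatives were a replicate block, other probe sets, normalisations, priors, weights and filters, and leaving out arrays. Figures were drawn with matplotlib 3.10.9.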

Additional observations from a re-analysis of the deposited data

Results flagged for a closer look

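In groups of 4 arrays, 9 of 86 groups tested over 43 named genes held an array whose gap to the nearest of the others was large against the whole range. Chance gives about 1 in 20 such groups where values are normal and groups independent. The groups here came from the same 8 arrays, which varied together, so that no excess can be read from the 9. Among the members, only Fcgr3 was affected, with unloaded array 1 at 9.88 and the next at 9.61 (log2). Unloaded array 1 was low for S100a8 (6.08, the next at 6.22) and Cma1 (5.68 and 5.81). Unloaded array 3 was high for Pik3cd (8.41 and 8.36), Blk (6.38 and 6.16) and Clec9a (4.78 and 4.58). In loaded cells, acLDL array 1 was high for Src (8.62 and 8.49) and Irf8 (9.37 and 9.23), and acLDL array 2 was low for Zbtb46 (6.35 and 6.67). Without unloaded array 1 the log2 difference of Fcgr3 was 0.66, against 0.59 with all arrays.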

How the results depend on the processing

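The direction and call of each of the 5 members held in 105 of 105 refits over 21 settings. Log2 differences ran from 0.65 to 0.77 for Fcgr1, 0.51 to 0.68 for Fcgr3, 0.28 to 0.49 for Fcgr4, 0.49 to 0.72 for Fcer1g and -0.52 to -0.27 for Fcgr2b, with adjusted p up to 0.0163. The extremes came from leaving out pairs of unloaded arrays, which, like cyclic loess, taking out a genomic span trend and testing all deposited probe sets, was chosen after seeing the data. Over the settings run for them, log2 ratios to Fcgr2b changed by 1.05 to 1.15 for Fcgr1, 0.96 to 1.01 for Fcgr3, 0.74 to 0.81 for Fcgr4 and 0.98 to 1.02 for Fcer1g. Median centring and averaging probe sets cannot change them. The ratios were not refitted with cyclic loess, with the span trend taken out or without pairs of unloaded arrays, which can change them. With cyclic loess the single differences were 0.65 for Fcer1g and -0.42 for Fcgr2b, so that the ranges of the ratios are too narrow. The count of all genes changed was 7603 with all deposited probe sets (3565 higher, 4038 lower) against 4650, since more features were tested, and 3618 to 4590 with 1 array left out. The count over the pathway lists ran from 36 to 57. With the replicate block 4860 genes, 5 members and 45 pathway genes passed, and 3 of 8 arrays correlated best with their own number in the other group. The block leaves the ratio differences as they were (1.10 for Fcgr1, 0.99 for Fcgr3, 0.78 for Fcgr4 and 1.00 for Fcer1g). Filters, priors, weights and further probe sets do not enter the ratios, and a second probe set of a member was not tried because each had 1. Of 793 refits of other named genes, 26 lost a call, over 7 genes, and 10 gained one. In 0 refits did a gene with a call in either fit turn direction. Genes without a call did turn sign, among them Prf1 (-0.08 to 0.04), S100a8 (-0.10 to 0.03) and Zbtb46 (-0.12 to 0.13, log2).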

Other observations

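Set against the group means, the deviations of Fcgr2b and Fcer1g had a Pearson's r of 0.94 (8 deviations, a description with no test). AcLDL moved the 2 genes in opposite directions. This r came mainly from the unloaded arrays, since the SD of Fcer1g over the acLDL arrays was only 0.01 (log2, n = 4). Unloaded arrays 1 and 4 stood above 2 and 3 in both genes, as in 43.2% of genes above the background gauge. Over the 10 pairs of members the r of deviations from group means ran from 0.17, for Fcgr1 with Fcgr3, to 0.94. The log2 ratio of Fcer1g to Fcgr2b had an SD of 0.02 over the 4 unloaded arrays, against 0.15 for Fcer1g and 0.16 for Fcgr2b themselves (log2, n = 4).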
